A study of Mus musculus with 2 samples.

Results

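The mitochondrial ribosomal protein genes were taken as the protein-coding genes whose symbol starts with Mrpl or Mrps followed by a digit, and 78 of 55536 annotated genes met this rule. By symbol, 29 belonged to the small subunit (Mrps) and 49 to the large subunit (Mrpl). Their levels were read in 2 total RNA libraries from the gastrocnemius, the large superficial calf muscle, of male B6CASTF1/J mice, the hybrid offspring of a C57BL/6J and a CAST parent. Both animals were 4 days old, the labels name no treatment, each gave 1 library made from 300 ng of RNA, and together they form the only group. Levels are therefore described within each library and between the 2 animals, with no test between conditions. An exact sign-flip test of 2 values cannot give a p under 0.5, and because each animal gave a single library, animal, dissection and library preparation cannot be told apart.

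Mitochondria carry their own ribosomes, which translate the few proteins that the mitochondrial genome still encodes, all of them subunits of the respiratory chain and of ATP synthase. The ribosomal RNAs come from the mitochondrial genome, but every protein of these ribosomes is encoded in the nucleus, made in the cytosol and imported. Some of these proteins have relatives in bacterial ribosomes, and others are found only in mitochondria. Muscle depends on this machinery because its contraction draws on oxidative phosphorylation.

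Expected counts in annotated genes summed to 35281187 for replicate 1 and to 32301531 for replicate 2, and the mitochondrial ribosomal protein genes took 0.155% and 0.153% of them. The 6 skeletal muscle markers summed to 42649 TPM (a level scaled to transcript length and library size) in replicate 1 and 39144 TPM in replicate 2, so the labelled tissue was present in both. Of the 2 heart markers, Myh6 had 48.2 and 60.4 TPM in the 2 libraries, and Nppa was listed at 0 in both. The 6 epidermis markers summed to 9.6 TPM in replicate 1 and 746 TPM in replicate 2, while the sums of fibroblast, endothelial, macrophage and erythroid markers differed by 1.15-fold or less. Values below come from the alignment-based table, in TPM, as mean ± SD (n = 2) unless a library is named. In bulk tissue, fewer cells of a type and less RNA per cell cannot be told apart.

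Every one of the 78 genes was detected, with mean expected counts between 119 and 1768. Of 11722 protein-coding genes that averaged at least 100 counts, 6174 stood at 10 TPM or more in both libraries. Of the 78 genes, 74 did. The median gene had 23.2 TPM in replicate 1 and 23.5 TPM in replicate 2, and 67 of the 78 had a mean between 10 and 50 TPM. Large subunit genes summed to 1461 TPM in replicate 1 and 1442 TPM in replicate 2 (1451 ± 13.5). Small subunit genes summed to 739 and 725 TPM (732 ± 10.01), so the large subunit sum was 1.98 ± 0.00869 times the small subunit sum. The gene in the middle of each subunit was at nearly the same level. Median TPM of small subunit genes was 22.8 in replicate 1 and 23.9 in replicate 2, and that of large subunit genes was 24.1 and 23.4. The log2 difference of the medians, large minus small, was 0.02 ± 0.08 and had opposite signs in the 2 libraries.

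**Figure D1:**
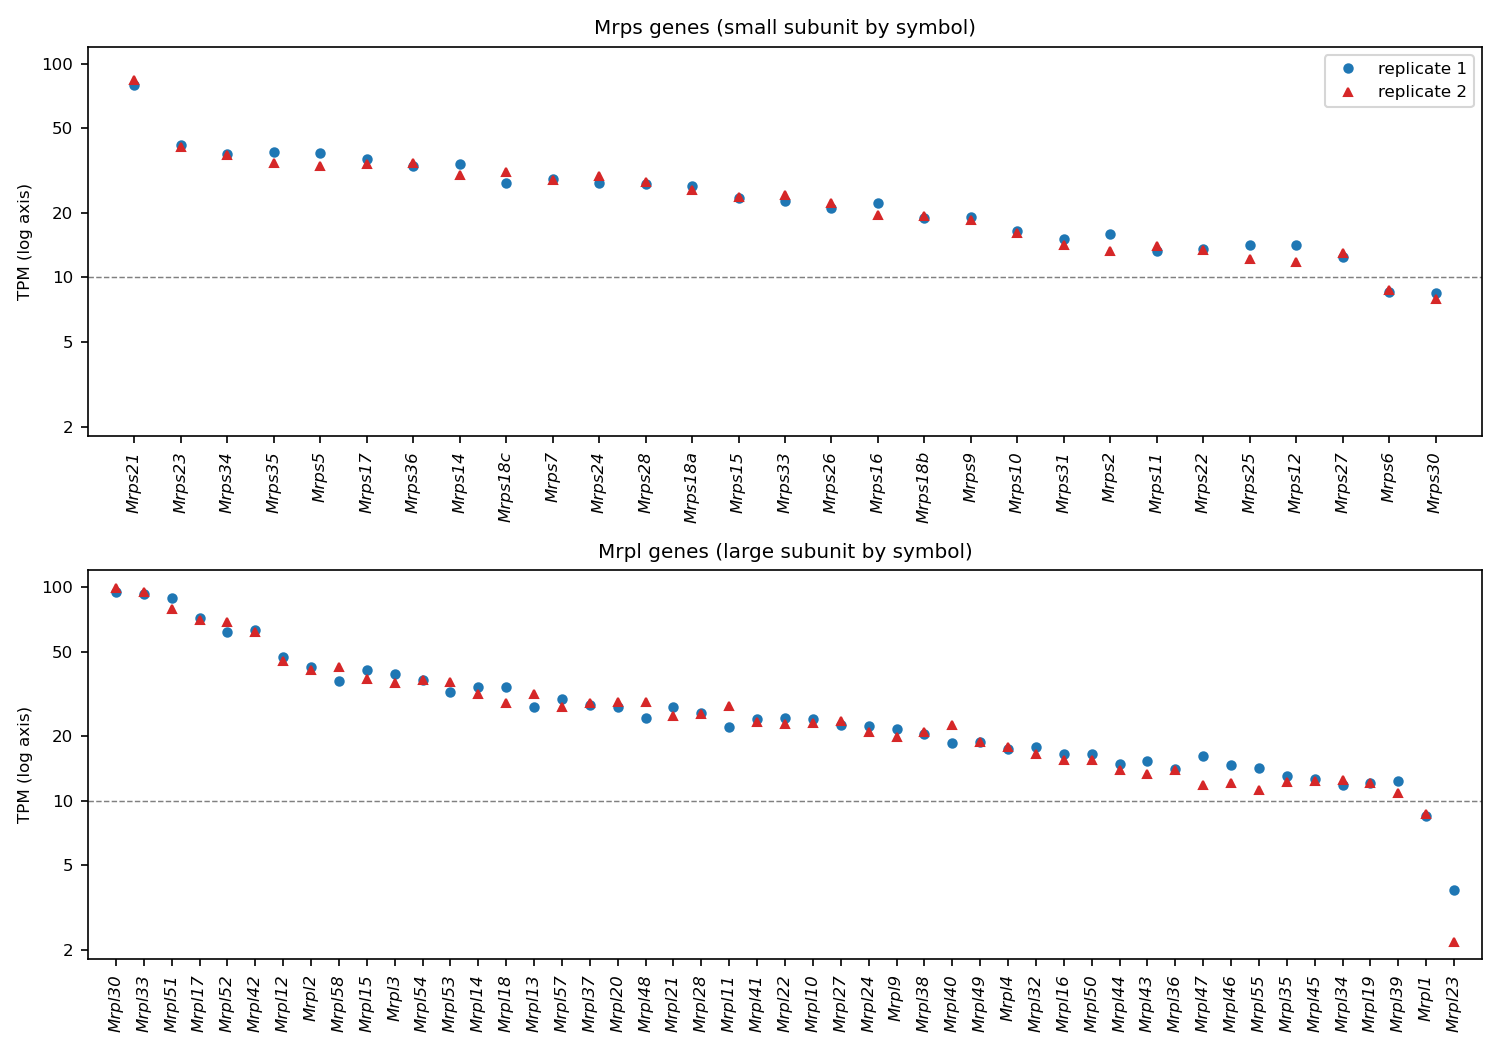
TPM (log axis) of each mitochondrial ribosomal protein gene in replicate 1 (circles) and replicate 2 (triangles), with small subunit genes above and large subunit genes below, ordered by mean; the dashed line marks 10 TPM. Apart from 7 genes above 50 TPM and 4 below 10 TPM, the genes lie between these levels, and the libraries lie close together at nearly every gene.

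In the large subunit the highest gene was Mrpl30, a relative of bacterial L30, with 95.1 TPM in the first library and 99.4 TPM in the second (chr1:37890477-37898535 on mm10). Mrpl33, a relative of bacterial L33, had 93.5 and 95.4 TPM. The mitochondria-specific protein gene Mrpl51 had 89.0 TPM in replicate 1 and 78.8 TPM in replicate 2. These 3 genes stood above all others of the large subunit in both libraries, and Mrpl30 and Mrpl33 differed by less than the SD of Mrpl30. Mrpl17, whose protein sits near the end of the peptide tunnel, had 71.3 ± 1.26 TPM. Mrpl52, found only in mitochondrial ribosomes, had 65.2 ± 5.19 TPM.

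The lowest large subunit gene was Mrpl23, with 3.83 and 2.18 TPM in replicates 1 and 2, a value that the other quantification did not share (described further on). Mrpl1, a protein of the mobile stalk beside the tRNA exit site, followed at 8.51 and 8.66 TPM. Mrpl39 had 11.6 ± 0.997 TPM, Mrpl19 12.2 ± 0.0141 TPM and Mrpl34 12.2 ± 0.460 TPM. The last 3 did not differ beyond their spread, while Mrpl1 lay below all of them in both libraries.

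Among small subunit genes Mrps21, a relative of bacterial S21, stood apart with 80.1 and 84.0 TPM in the 2 libraries (chr3:95862634-95871519 on mm10). The next 4 were Mrps23 at 41.2 ± 0.757, Mrps34 at 37.8 ± 0.184, Mrps35 at 36.6 ± 3.28 and Mrps5, a relative of bacterial S5, at 35.8 ± 3.39 TPM. Mrps23, Mrps34 and Mrps35 are specific to mitochondria. At the lower end, Mrps30 had 8.43 and 7.96 TPM and Mrps6, a relative of bacterial S6, had 8.54 and 8.72 TPM. Mrps27 followed at 12.8 ± 0.410 TPM, Mrps12, a protein of the decoding centre, at 13.0 ± 1.70 TPM, and Mrps25 at 13.2 ± 1.34 TPM. Mrps6 and Mrps30 lay below the other small subunit genes in both libraries.

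Symbol and place in the ribosome do not always match. Mrps30 and Mrps18a carry small subunit names, but their proteins lie in the large subunit. Mrps36, which is now described as part of the oxoglutarate dehydrogenase complex (as Kgd4) and not of the ribosome, had 33.2 TPM in replicate 1 and 34.3 TPM in replicate 2. The small subunit also contains Dap3, a GTP-binding protein, Ptcd3, an RNA-binding pentatricopeptide protein, Chchd1 and Aurkaip1, and the large subunit contains Gadd45gip1. Aurkaip1 had 34.1 ± 1.81, Chchd1 33.2 ± 1.92, Ptcd3 32.9 ± 2.84, Dap3 28.7 ± 1.29 and Gadd45gip1 13.2 ± 0.544 TPM. All 5 were thus within the range of the genes named Mrpl or Mrps. With subunits set by structure, the median small subunit gene was at 25.4 and 26.1 TPM and the median large subunit gene at 23.3 and 23.2 TPM.

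Genes for proteins with a bacterial relative and genes for mitochondria-specific proteins had medians within a few TPM of each other. In the small subunit the 15 genes with a bacterial relative had a median of 23.7 ± 0.262 TPM and the 11 mitochondria-specific genes one of 21.7 ± 0.757 TPM, lower in both libraries. In the large subunit the 29 genes with a bacterial relative had a median of 23.9 ± 0.332 TPM and the 21 mitochondria-specific genes one of 23.8 ± 0.601 TPM, and these values overlapped between the libraries. Mrps18a and Mrps18b were counted as mitochondria-specific, although both belong to the family of bacterial S18, so the classes are not strict. Mrpl55 was left unclassified and is in neither class.

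Functional sites of the large subunit differed in how even their levels were. The stalk that recruits translation factors is built from Mrpl10 and copies of Mrpl12. Mrpl12 had 47.4 TPM in replicate 1 and 45.3 TPM in replicate 2, and Mrpl10 had 24.1 and 23.03 TPM, so that Mrpl12 was the higher of the pair in both libraries.

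Around the exit of the peptide tunnel, levels ran over a wide range. Mrpl17 was highest at 71.3 TPM, then came Mrpl22 at 23.6 ± 0.997, Mrpl24 at 21.7 ± 1.06, Mrpl44 at 14.3 ± 0.629, Mrpl47 at 14.0 ± 3.07 and Mrpl45 at 12.5 ± 0.212 TPM, with Mrpl23 last. The other quantification, described further on, gave another order. There Mrpl23 was highest at a mean of 109 TPM, before Mrpl22 at 65.2 and Mrpl17 at 59.5 TPM. Mrpl45 tethers the ribosome to the inner membrane, where Oxa1l inserts the new proteins. Oxa1l itself was at 32.7 ± 3.25 TPM. The order of Mrpl44, Mrpl45 and Mrpl47 changed between the 2 libraries.

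The central protuberance, which faces the small subunit, was more even. Its 6 genes were Mrpl18 (31.4 ± 3.63 TPM), Mrpl48 (26.8 ± 3.17), Mrpl27 (23.1 ± 0.792), Mrpl38 (20.8 ± 0.184), Mrpl40 (20.7 ± 2.78) and Mrpl46 (13.4 ± 1.76). Mrpl46 was lowest in both libraries. The S18 family has 3 members in mammals. Mrps18c, the nearest to bacterial S18, had 29.4 ± 2.45 TPM, Mrps18a 26.3 ± 0.806 TPM and Mrps18b 19.2 ± 0.198 TPM, and Mrps18b was the lowest of them in both libraries.

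Against the rest of the translation apparatus, mitochondrial ribosomal protein genes took a middle position. Their median TPM was 3.05 ± 0.182 times that of 20 mitochondrial tRNA synthetase genes and subunits of the glutaminyl-tRNA amidotransferase, 3.85 ± 0.374 times that of 21 ribosome assembly and rRNA modification genes, and 2.09 ± 0.0613 times that of 14 translation factor and related genes. The highest of those groups were Lars2 at 30.6 ± 11.4 TPM, the RNA helicase gene Dhx30 at 27.7 ± 0.898 TPM and the elongation factor gene Tufm at 40.8 ± 1.65 TPM. By mean TPM all 3 exceeded the median mitochondrial ribosomal protein gene, although Lars2 fell short of it in replicate 2, at 22.6 TPM.

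Cytosolic ribosomal proteins and respiratory subunits were far higher. Median TPM of 76 cytosolic ribosomal protein genes was 398 and 422 in the 2 libraries, which is 17.6 ± 0.555 times the mitochondrial ribosomal median. For 81 nuclear genes of the respiratory chain and ATP synthase it was 179 and 160 TPM, or 7.27 ± 0.668 times. The 13 proteins encoded in mitochondrial DNA had a median of 2042 ± 144 TPM. The 2 mitochondrial ribosomal RNAs had 42831 ± 3013 TPM (mt-Rnr2, large subunit) and 26331 ± 2187 TPM (mt-Rnr1, small subunit). The labels' spike-in profile is one for ribosome-reduced libraries, and how far these 2 RNAs were depleted was not tested.

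How even the levels were depended on the measure of spread. The SD of log2 TPM was 0.84 in replicate 1 and 0.90 in replicate 2 over the 78 genes, 0.91 and 0.94 over cytosolic ribosomal protein genes, and 2.14 and 2.10 over nuclear respiratory subunit genes, of which 2 were listed at 0. The interquartile range of log2 TPM, which such extreme genes do not set, was 1.13 and 1.23 over the 78 genes, 1.07 and 1.09 over cytosolic ribosomal protein genes, and 1.30 and 1.10 over respiratory subunit genes. The 78 genes thus had the smaller SD but the wider interquartile range beside the cytosolic ribosome in both libraries. Shorter transcripts had higher TPM. Across the 78 genes log2 TPM and log2 mean transcript length had r = -0.62 and rho = -0.59, while log2 expected count and log2 length had r = 0.16 and rho = 0.25. These are descriptions across genes, which share libraries and are not independent replicates, and TPM is itself divided by length.

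**Figure D2:**
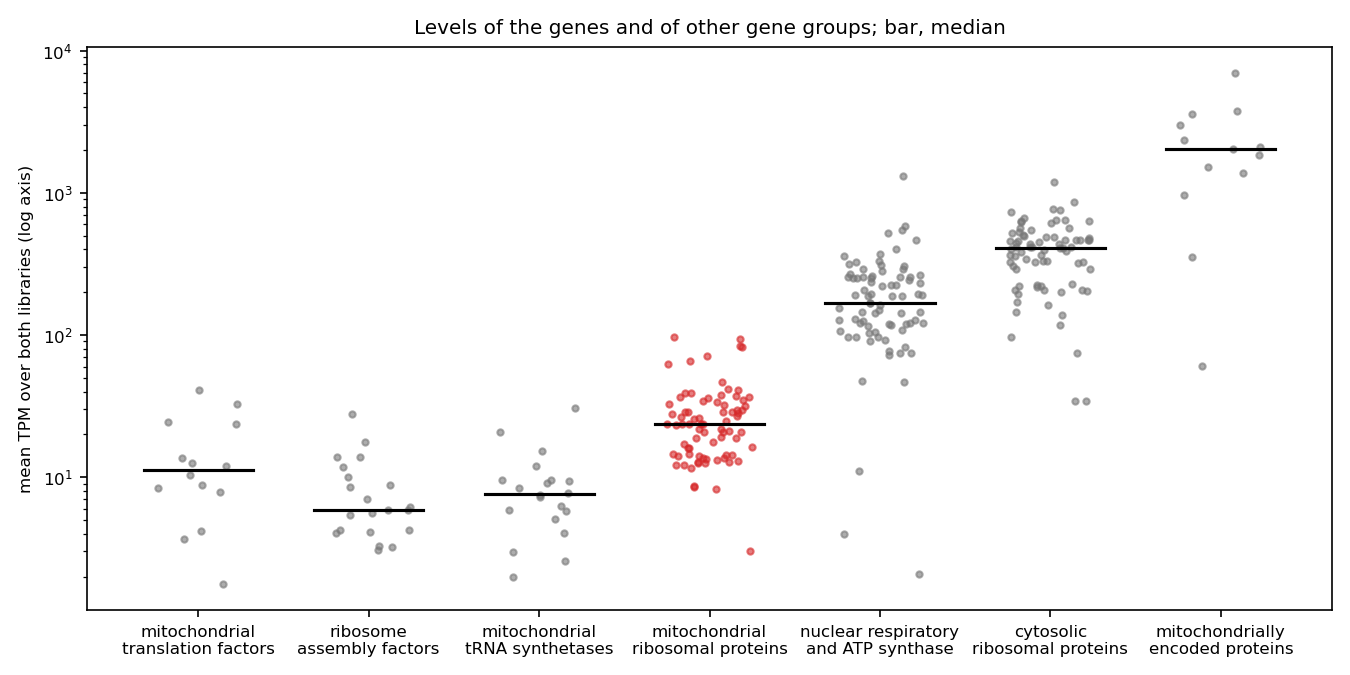
Mean TPM over both libraries (log axis) of single genes in 7 gene groups, with mitochondrial ribosomal protein genes in red and a bar at each group's median; 2 respiratory genes listed at 0 are not drawn. The red points lie above most genes for mitochondrial translation, assembly and tRNA charging and below most respiratory and cytosolic ribosomal genes.

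The 2 animals were compared by the log2 ratio of scaled counts, replicate 2 over replicate 1. None of the 78 genes differed by over 1.5-fold, against 3.98% of the 12421 genes that averaged at least 100 counts. This is not particular to them, since 0 of 77 nuclear respiratory subunit genes and 1 of 76 cytosolic ribosomal protein genes past that minimum did. The median log2 ratio was -0.06 for the 78 genes and -0.01 for all genes tested. Its direction rests on the scale, since with ERCC spike-in counts as the scale it was 0.01 for the 78 genes and 0.07 for all. The SD of the ratios was 0.13 over the 78 genes and 0.69 over all tested. Of the 78, 54 had a ratio below 0 (69.2%, against 51.9% of all genes tested).

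The exact 95% counting interval lay below 0 for 13 genes (16.7%, against 22.8%) and above 0 for 4 (5.13%, against 19.9%). These intervals cover counting error only and are narrower for highly counted genes. The 5 largest ratios were all lower in replicate 2. Mrpl23 had -0.54 (interval -0.92 to -0.15) on 144 and 93.7 expected counts. These counts carry an estimation SD of 33.8 and 30.2 that the interval leaves out, and directly from reads the ratio of Mrpl23 was -0.04. Mrpl47 had 682 counts in replicate 1 and 502 in replicate 2, a log2 ratio of -0.36 (-0.53 to -0.19). Mrpl55 had -0.32, Mrps2 -0.29 and Mrpl46 -0.28. Without Mrpl23 the largest difference was 1.28-fold. The 4 genes with an interval above 0, named here after their values were seen, were Mrpl11, Mrpl40, Mrpl13 and Mrpl48, with log2 ratios of 0.20, 0.19, 0.16 and 0.15.

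Other groups moved in both directions. Of 77 nuclear respiratory subunit genes that averaged at least 100 counts, 70 had a lower and 7 a higher scaled count in replicate 2 (median log2 ratio -0.13). The 6 muscle markers were all lower in replicate 2, with a median of -0.17, and cytosolic ribosomal protein genes were higher for 67 of 76 (median 0.07). The epidermis markers were higher in replicate 2 for 6 of 6, as their sums above show. The part of muscle and skin RNA in the ratios of the mitochondrial ribosomal genes was not tested.

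**Figure D3:**
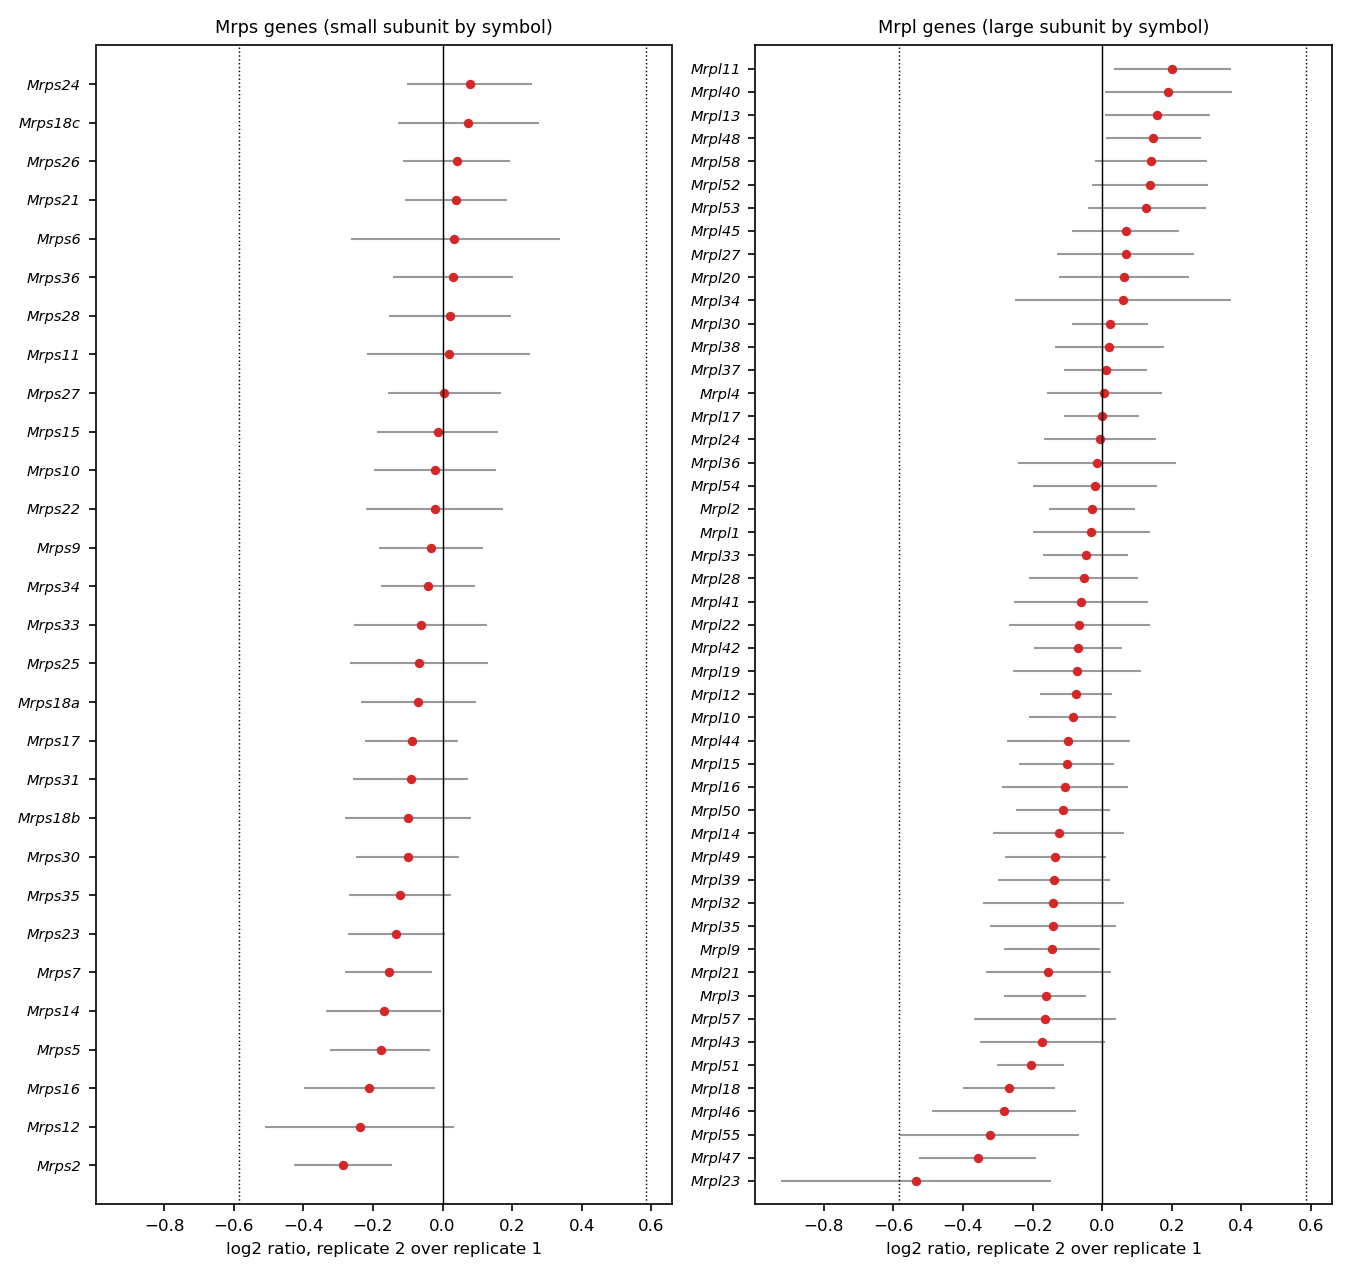
Log2 ratio of scaled expected counts, replicate 2 over replicate 1, for small subunit genes (left) and large subunit genes (right); points are ratios, lines are exact 95% counting intervals, and dotted lines mark 1.5-fold either way. Every point lies within the dotted lines, and Mrpl23 is the lowest, though directly from reads (not drawn) its ratio was -0.04.

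The files quantify the same libraries from alignments and again directly from reads. Directly from reads the median of the 78 genes was 40.9 and 43.3 TPM in the 2 libraries. The fold of direct over alignment TPM had a median of 1.71 over the 78 genes and 1.60 over protein-coding genes that averaged at least 100 counts. For 71 of the 78 the fold lay between 1.2 and 2.5. The largest after Mrpl23 were Mrpl27 (3.46-fold), Mrpl22 (2.76-fold), Mrpl35 (2.69-fold) and Mrpl3 (2.47-fold). At the other end stood Mrpl17 (0.835-fold), Mrps5 (1.18-fold), Mrpl15 (1.198-fold), Mrpl49 (1.27-fold) and Mrps21 (1.29-fold), and Mrpl17 alone of the 78 was lower directly from reads. Counts of Mrpl17 nearly matched, with 1418 and 1336 by alignment and 1408 and 1320 directly from reads. Those of Mrpl27 did too, with 428 and 423 against 425 and 448. Mrps21 differed in counts, with 771 and 747 by alignment and 355 and 357 directly from reads.

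**Figure D4:**
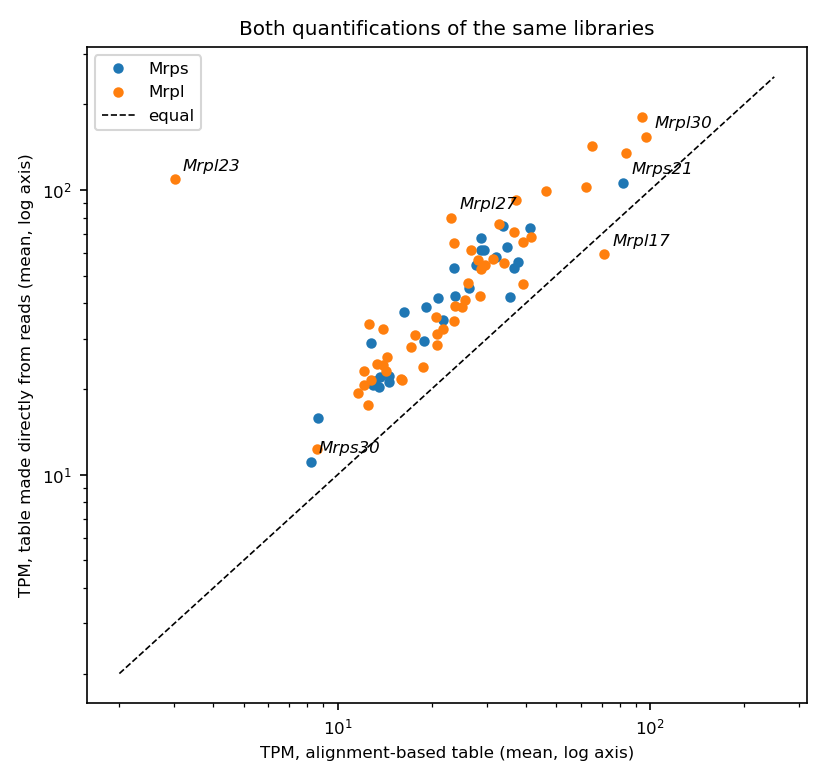
Mean TPM by the alignment-based table (horizontal, log axis) and by the table made directly from reads (vertical, log axis), one point per gene; the dashed line marks equal values. Mrpl17 lies below the line and Mrpl23 lies far above it.

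Mrpl23 encodes a protein at the rim of the peptide tunnel exit and was the gene on which the quantifications parted. By alignment it had 144 expected counts in replicate 1 and 93.7 in replicate 2, with an estimation SD of 33.8 and 30.2 counts from the authors' program. Directly from reads it had 958 and 881 estimated counts, or 108 and 110 TPM, which is 36.4-fold more on the TPM scale. It was thus the lowest of the 78 genes in one table and the fifth highest in the other. A processed pseudogene, Mrpl23-ps1 (chr2:74591330-74591909 on mm10, minus strand), is a copy of the spliced transcript. It had 772 and 730 expected counts by alignment (55.3 ± 0.615 TPM) and 0 in both libraries directly from reads. Gene and copy together had 916 and 824 counts by alignment, close to the 958 and 881 that the direct table gives to Mrpl23 alone.

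In the reference transcripts of GENCODE M21, the coding sequence of Mrpl23 (chr7:142532686-142540747 on mm10, plus strand) was identical to the pseudogene transcript over all 438 of its bases, with no substitution and no gap. The sequences that these hybrid animals carry, including those of the CAST parent, were not examined. Its first 150 bases, which are also bases 18 to 167 of the pseudogene transcript, are shown because both reference transcripts have these same letters. No base is in capitals as none differs.
Mrpl23 and Mrpl23-ps1: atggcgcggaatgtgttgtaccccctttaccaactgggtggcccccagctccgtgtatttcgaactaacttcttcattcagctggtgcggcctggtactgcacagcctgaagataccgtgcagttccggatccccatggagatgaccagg
The transcript Mrpl23-206, which took most of the gene's TPM directly from reads (71.5 in replicate 1 and 63.0 in replicate 2), had 0 by alignment. It is 736 bases long, and 507 of them match the pseudogene transcript in 1 block without a difference. Reads within this block cannot be assigned by the reference sequence alone, so neither Mrpl23 value is certain.

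Near-identical transcripts of other genes were looked for in all members. Of the 78 genes, 22 had a transcript of another gene that matched at least 80% of their main coding sequence at 90% identity or more, most of them processed pseudogenes. Only 5 of the matched genes had 20 or more expected counts in both libraries. Besides Mrpl23-ps1 these were Gm42688 for Mrpl53 (112 and 92.1 counts), Mrpl48-ps for Mrpl48 (88.9 and 108), AC154457.3 for Mrps10 (41.1 and 41.4) and Gm5776 for Mrps33 (28.3 and 46.4). Gm42688 is not a copy at another place. Its span (chr6:83101617-83109939) takes in Mrpl53 (chr6:83109040-83109939) on the same strand, and its matching transcript is typed for nonsense-mediated decay. In those 4 pairs the gene itself held the larger share, for example 863 and 902 counts for Mrpl48. Directly from reads Mrpl48-ps had 2.72 and 0 estimated counts, Gm5776 had 0 in both libraries and AC154457.3 had 26.5 and 28.9. Gm42688 went the other way, with 340 and 314 directly from reads beside 400 and 420 for Mrpl53. The levels of these 5 genes are therefore less certain than the rest.

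The annotation lists 343 transcripts for the 78 genes, and not all are typed as protein coding. By alignment, protein-coding transcripts held 73.6% of the summed TPM in replicate 1 and 74.5% in replicate 2 (74.0% ± 0.609). Transcripts typed processed transcript, which have no annotated reading frame, held 9.65% ± 0.676, those with a retained intron 9.60% ± 0.0448, and those typed as targets of nonsense-mediated decay 6.71% ± 0.0224. The same protein-coding share was 81.1% ± 0.242 for cytosolic ribosomal protein genes, 82.7% ± 1.01 for nuclear respiratory subunits and 85.4% ± 0.116 for protein-coding genes that averaged at least 100 counts. Directly from reads the 78 genes and the cytosolic ribosomal protein genes had nearly the same share, 68.4% ± 0.608 and 68.5% ± 0.177. In that quantification it was 75.5% ± 0.231 for nuclear respiratory subunits and 83.3% ± 0.138 for the protein-coding genes. Transcripts that contain the whole main coding sequence, letter for letter, held 61.6% ± 0.0456 of the TPM of the 78 genes.

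The share in transcripts typed protein coding was uneven among genes. It was 90% or more in both libraries for 41 of the 78, and under 50% in both for 18 (23.1%, against 7.64% of protein-coding genes at that count minimum). Of cytosolic ribosomal protein genes 17.1% were under 50% in both libraries, and of nuclear respiratory subunit genes 12.7%. The 18 were Mrpl51, Mrpl57, Mrps16, Mrps14, Mrps26, Mrpl15, Mrpl32, Mrpl3, Mrpl23, Mrps25, Mrps24, Mrpl19, Mrpl35, Mrps11, Mrpl47, Mrpl13, Mrps5 and Mrps35. Directly from reads 18 genes were under 50% as well, and 14 were under it in both tables. The share in transcripts with the whole main coding sequence was over 50% for 52 of the 78, and a gene could be high in one share and low in the other. Mrpl17, for example, had 78.9% ± 0.201 in coding transcripts and 3.39% ± 0.149 in transcripts with the main coding sequence.

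Mrpl51 had the lowest share, 2.49% ± 0.0620. Its only transcript typed as coding is 3427 bases long and had 2.26 TPM in replicate 1 and 1.93 TPM in replicate 2. An 855-base processed transcript of the same gene, which lacks the full coding sequence, had 62.5 and 54.5 TPM. Mrps16 showed the same arrangement, with a 2572-base coding transcript at 1.11 and 0.88 TPM and an 801-base processed transcript at 21.2 and 18.8 TPM. In Mrps26 a 4278-base coding transcript had 1.10 and 1.09 TPM and a 1057-base transcript with a retained intron had 20.1 and 21.1 TPM. For 9 of the 18 genes, even the shortest coding transcript was longer than 2000 bases.

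Mrpl57 differed from these. Its leading transcript, Mrpl57-202, is typed as having a retained intron and had 28.9 TPM in replicate 1 and 26.7 TPM in replicate 2, yet it contains the whole coding sequence of 306 bases. It was the only one of the 18 whose leading transcript did. For Mrps14 the tables parted: a 674-base transcript typed for nonsense-mediated decay had 32.3 and 28.8 TPM by alignment but 0 and 2.61 TPM directly from reads, where a 787-base coding transcript had 59.3 and 51.7 TPM. The 787-base transcript lacks the whole main coding sequence. Transcripts that contain it held 2.76% ± 0.0383 of the TPM of Mrps14 directly from reads. Mrps11 also switched, from a coding share of 31.6% ± 7.24 by alignment to 93.4% in replicate 1 and 76.6% in replicate 2 directly from reads. Mrpl23 likewise passed 50% in the direct table, at a mean of 66.4%. Transcripts with the whole main coding sequence held a mean of 1.70% there for Mrpl23 and 85.0% for Mrps11. Mrpl13 had a mean of 50.3% there and passed 50% in replicate 1 only. By the rule of under 50% in both libraries, as many genes switched the other way. Mrpl17 went from 78.9% by alignment to 14.3% directly from reads and Mrpl38 from 73.5% to 20.6%. Mrpl33 went from 76.1% to 37.7% and Mrpl27 from 97.0% to 45.0%. Mrps7 went from 60.5% to a mean of 45.7%, but was under 50% in replicate 2 only. Over all 78 genes the leading transcript was the same in both tables for 58, so transcript types are less certain than gene levels.

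**Figure D5:**
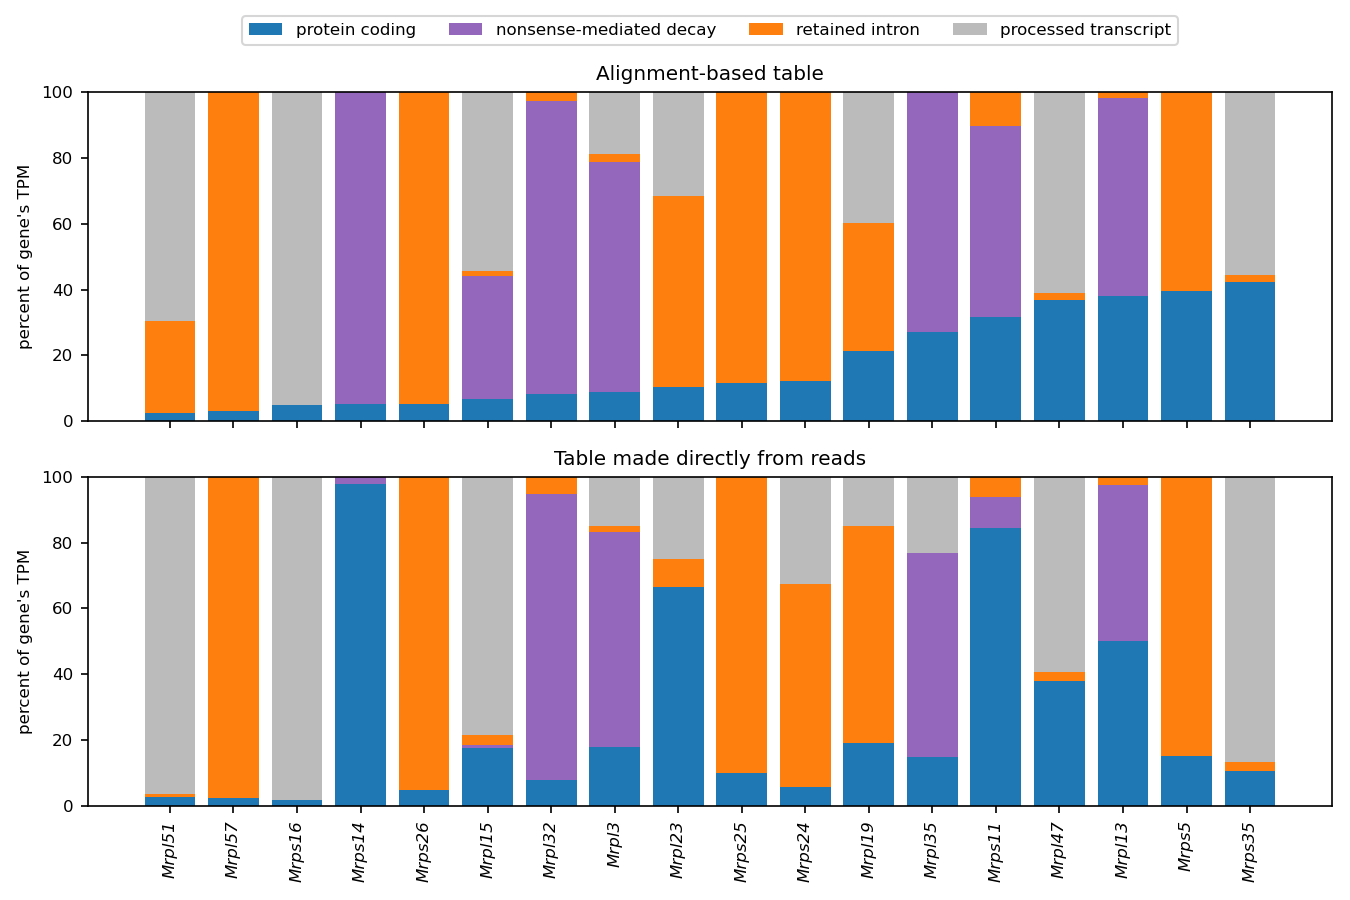
Percent of each gene's TPM (mean of both libraries) in 4 transcript types for the 18 genes with under 50% in protein-coding transcripts by alignment, in the alignment-based table (above) and in the table made directly from reads (below). Mrps14, Mrps11 and Mrpl23 change to mostly transcripts typed protein coding below, while Mrpl51, Mrpl57, Mrps16 and Mrps26 stay low in both. For Mrps14 and Mrpl23 most of that TPM is in transcripts without the whole main coding sequence.

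The genes are spread over 17 chromosomes, with the most (11) on chromosome 11 and none on X. They often start next to another gene. For 26 of the 78 (33.3%) a protein-coding gene on the opposite strand started within 1000 bases upstream or overlapped the start by less than 500 bases, against 9.50% of 22028 protein-coding genes. One such pair joins 2 members, Mrps11 and Mrpl46, at 13.7 and 13.4 TPM. By mean TPM the member was the higher gene in 21 of the 26, with Mrps11 and Mrpl46 each entered as a member. The same share over other such pairs was not taken. The median member was at 23.3 TPM and the median protein-coding gene averaging at least 100 counts at 11.4 TPM. Mrpl30 at 97.2 TPM stood beside Mitd1 at 3.00 TPM, whereas Mrpl49 at 18.8 TPM stood beside the cytosolic ribosomal gene Fau at 406 TPM. Whether strand was used in counting is not given, and 36 of the 78 overlap a gene on the opposite strand, so their values may hold reads of it.

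Promoter windows of 300 bases, 250 before and 50 after the start, were matched for 69 of the 78 symbols in RefSeq (GRCm38.p6), giving 75 windows. Factors known for genes of mitochondrial biogenesis include the ETS protein GABPA (NRF2), NRF1 and YY1. The letters CCGGAAG, a core of ETS sites, stood on either strand in 34.7% of the windows against 8.86% of all 32851 windows in the table. GCGCATGC, a core of NRF1 sites, stood in 10.7% against 2.71%, and AAGATGGCG, a YY1 motif, in 10.7% against 1.40%. At least 1 of these 3 was found in 48.0% of the windows, in 48.5% of those of cytosolic ribosomal protein genes, in 38.6% of those of nuclear respiratory subunits and in 12.1% of all. GGGCGG, the box of SP1, stood in 52.0% against 35.7%, CCAAT in 30 of the 75 windows against 37.4% of all, and TATAAA in 6.67% against 13.6%. Base composition differed too, with a median GC content of 58.7% against 52.7%. The letter pair CG stood a median of 21 times in the windows of the 78 genes and 7 times in all windows. It stood 21 times in those of cytosolic ribosomal protein genes and 19 times in those of nuclear respiratory subunits. The ETS, NRF1 and YY1 letters all contain CG, and how far their shares follow this composition was not tested. A match describes the letters and is no sign of binding.

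The shares above count the whole 300-base windows, of which the 150 bases before the start of 3 genes are given, on the strand of the gene and 5′ to 3′, with ETS, NRF1 and YY1 letters in capitals. Mrpl22 holds both an ETS and an NRF1 match, Mrps27 an ETS match on the other strand and a YY1 match outside the bases shown, and Mrpl30, the highest gene, none of the 3 in its window.
Mrpl22, chr11:58171514-58171663, plus strand: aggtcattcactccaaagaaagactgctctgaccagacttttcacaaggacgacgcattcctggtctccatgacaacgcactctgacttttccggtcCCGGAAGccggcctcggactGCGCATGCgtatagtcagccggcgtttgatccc
Mrps27, chr13:99344636-99344785, plus strand: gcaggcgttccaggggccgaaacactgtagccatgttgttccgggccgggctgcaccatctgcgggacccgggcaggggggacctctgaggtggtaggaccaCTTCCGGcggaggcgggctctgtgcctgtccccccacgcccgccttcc
Mrpl30, chr1:37890327-37890476, plus strand: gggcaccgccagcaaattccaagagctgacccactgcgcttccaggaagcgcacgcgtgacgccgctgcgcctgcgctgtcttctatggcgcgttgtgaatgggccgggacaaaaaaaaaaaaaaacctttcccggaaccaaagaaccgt
Levels overlapped between genes with and without these letters. The 26 genes with an ETS match had a median of 26.5 TPM and the 43 without one 18.9 TPM, while for NRF1 the medians were 22.2 with and 23.6 without a match and for YY1 20.2 and 23.6. These are descriptions over genes that share the same 2 libraries.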

How the data were processed

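Total RNA from the gastrocnemius of 2 mice was sequenced, and the genome build is mm10 with GENCODE M21, per the deposited notes. The sources used here name no program, version or use of strand. Expected counts and TPM come from gene and transcript tables that the authors deposited, with RSEM-style columns per the file headers, where transcripts also carry their percent of the gene (not used). A second deposited table, made straight from the reads as its notes say, holds estimated counts and TPM under names that kallisto writes, and its values were summed per gene. Spike-ins and the numbered entries of the table, which held 4 and 6 counts, were left out of the genes.

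Ratios between libraries used expected counts scaled by TMM in edgeR 4.0.16 with a prior count of 0.5, for genes averaging at least 100 counts, and exact 95% intervals (Clopper-Pearson) on how rounded counts split between libraries. The ratio script was tested on simulated data. Log2 TPM used a pseudocount of 0.1. DESeq2 1.42.0 gave an alternative scale. Copies were found with blastn 2.17.0 and aligned with Biopython 1.88. The members and all lists were chosen with earlier results of these data known. The text names the 5 highest and 5 lowest genes of each subunit, all of the structural lists, the 5 largest ratios, the 5 largest differences between quantifications either way, and genes with under 50% of TPM in coding transcripts. Whether the animals are more than technical replicates rests on the labels, which number them separately. The lowest expected count of a member in either library was 93.7.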

Additional observations from a re-analysis of the deposited data

How the results depend on the processing

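Of 57 alternative values, 37 stayed within the spread between libraries or within 1.5 times the count, 17 moved and 3 reversed. Some of the 37 could not have moved. Leaving out 1 of 2 replicates shifts a mean by less than the SD, so such a value could only stay or change sign. Every member averaged at least 119 counts, so count minimums of 100 or less removed none. Adding Mrpl23-ps1 could not alter the small subunit sum. The tally of 37 is therefore no measure of robustness. TPM of the second table gave 1280 for the small and 2663 for the large subunit, a median of 42.1 and a coding share of 68.4%. TPM over protein-coding genes outside the mitochondrial genome gave 1752, 3475 and 55.9. Subunits by structure gave 792, 1499 and 23.8, and reversed the log2 difference of the subunit medians to -0.14. Adding Mrpl23-ps1 to Mrpl23, chosen after seeing the data, gave 1506 for the large subunit, a median of 23.8 and a log2 SD of 0.82. Counts not divided by length gave a log2 SD of 0.69, and expected counts a coding share of 79.3%. The median log2 ratio between libraries was -0.021 by plain library-size scaling, -0.039 by the second table and 0.014 by ERCC counts, where it reversed. Leaving out a replicate gave log2 subunit differences from -0.032 to 0.080. The causes were not tested. No paired analysis was possible because the 2 libraries form 1 group. Depth sets the width of the counting intervals, and the level of Mrpl23 depends on how reads shared with its copy are assigned.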
